A study of Mus musculus with 6 samples.

Results

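The ABC transporters of the hepatocyte canalicular and sinusoidal membranes were followed in mouse liver through 10 genes, Abcb11, Abcb4, Abcb1a, Abcc2, Abcc3, Abcc4, Abcg2, Abcg5, Abcg8 and Abca1. The genes were chosen by symbol, and every probe set paired with exactly 1 gene of that list was taken. This gave 12 of the 22690 probe sets on the array and 9 of the 10 genes; no probe set was paired with Abcc4 alone, and Abcc4 was not analysed here. All 9 genes passed the filter on low signals and were among the 9692 genes tested. The livers came from wild-type male C57Bl/6 mice that received recombinant FGF19, purified FGF15 or vehicle by injection into the jugular vein and were kept without food for the 6 h until harvest. FGF15 is the mouse intestinal hormone and FGF19 its human counterpart. Total RNA was hybridised to Mouse Genome 430A 2.0 arrays, with 2 arrays for FGF19, 2 for FGF15 and 2 for vehicle; the doses and the composition of the vehicle were not given in the sources used here. Whether a group's 2 arrays represent different animals is not stated, so the p-values measure the spread from array to array, and that spread may be technical.

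ABC transporters use ATP to move their substrates across a membrane, and the hepatocyte sorts them to opposite faces of the cell. At the canalicular face they secrete the components of bile: bile acids, phospholipid, cholesterol, and conjugates of bilirubin and drugs. At the sinusoidal face other members return conjugates and bile acids to the blood or hand cholesterol to apolipoprotein A-I. Several of the genes are known targets of nuclear receptors, Abcb11 of the bile acid receptor FXR and Abca1, Abcg5 and Abcg8 of the oxysterol receptor LXR, and FGF15/19 is the gut hormone that represses hepatic bile acid synthesis.

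The deposited values are linear signals, which the authors had scaled so that the trimmed mean was the same on every array. The median signal per array was 50.8 and 52.2 with FGF19, 55.2 and 51.3 with FGF15, and 61.4 and 59.4 with vehicle, so it was lower on all 4 hormone arrays than on either vehicle array. FGF19 replicate 1 stood apart in RNA quality: its 3' to 5' ratio was 1.63 for actin, against 1.30 to 1.39 on the other 5 arrays, and 3.38 for pyruvate carboxylase, against 2.27 to 2.73. Differences are given on the log2(signal + 32) scale, which understates the change of dim probe sets; a gene was called where limma's p, adjusted over all 9692 genes by the Benjamini-Hochberg method, was under 0.05. Over all tested genes the median difference was -0.07 for FGF19 minus vehicle, -0.05 for FGF15 minus vehicle and -0.02 for FGF19 minus FGF15.

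Abcc3 rose with both hormones, Abca1 and Abcg5 were higher with FGF19 than with FGF15, and Abcb11 fell with FGF19. In FGF19 livers Abcc3, Abca1 and Abcg5 rose and Abcb11 fell, while 5 of the 9 genes did not pass the test; 13.5% of all tested genes were called in that comparison, 6.27% higher and 7.26% lower. In FGF15 livers Abcc3 rose and Abcg5 fell, while 7 of 9 did not pass, against 12.5% called among all tested genes, 5.87% higher and 6.64% lower. Set directly against FGF15, FGF19 gave higher Abcg5 and Abca1 and no call among the other 7, against 4.29% called among all tested genes, 2.4% higher and 1.89% lower. In whole liver, fewer cells of a type and less RNA per cell cannot be told apart. No member was called lower in FGF19 than in FGF15 livers by limma, although at an unadjusted p under 0.05 there were 3 members higher and 1 lower. The share of all tested genes at an unadjusted p under 0.05 is not given here. Such counts, here and below, therefore cannot be read as above or below that share. The share of calls that were higher depends on the scaling: centring every array on its median log2 value shifted the median of all genes by 0.15 for FGF19 minus vehicle and 0.12 for FGF15 minus vehicle. With it, 78.7% of the FGF19 calls were higher, against 46.3% as reported, and 73.8% of the FGF15 calls, against 46.9%.

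**Figure D1:**
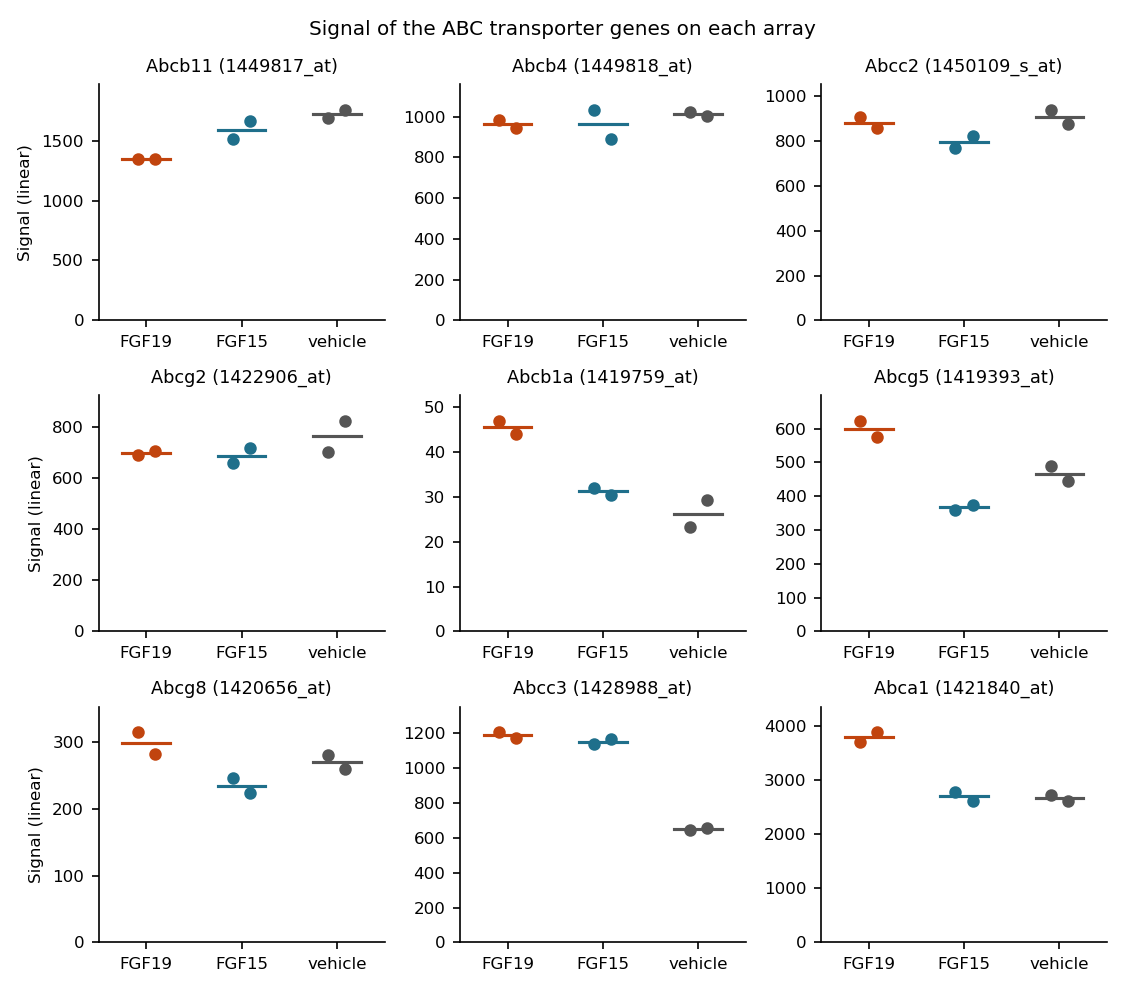
Deposited signal (linear, each panel from 0) of the probe set that represents each of the 9 transporter genes, with 1 point per array and a line at the mean of the 2 arrays of FGF19, FGF15 and vehicle. Abcc3 is high with both hormones, Abca1 with FGF19 alone of the 3 groups, and Abcg5 lies on opposite sides of vehicle with FGF19 and FGF15.

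The median difference over the 9 genes was 0.13 for FGF19 minus vehicle and -0.12 for FGF15 minus vehicle, beside medians of -0.07 and -0.05 over all tested genes. In FGF19 livers both arrays lay above both vehicle arrays for 5 members and below them for 2, and the arrays overlapped for 2; among all tested genes 58.7% did not overlap, 21.4% above and 37.2% below. In FGF15 livers 2 members lay above vehicle, 4 below and 3 overlapped, against 55% of tested genes without overlap, 22.2% above and 32.7% below. Between the hormones 6 members lay higher with FGF19, 1 lower and 2 overlapped, against 45.9% of tested genes without overlap, 20.1% above and 25.8% below. An exact permutation test of 2 arrays against 2 cannot give a two-sided p below 0.333, so each p below comes from the limma fit across all genes, which borrows the spread from the other genes.

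**Figure D2:**
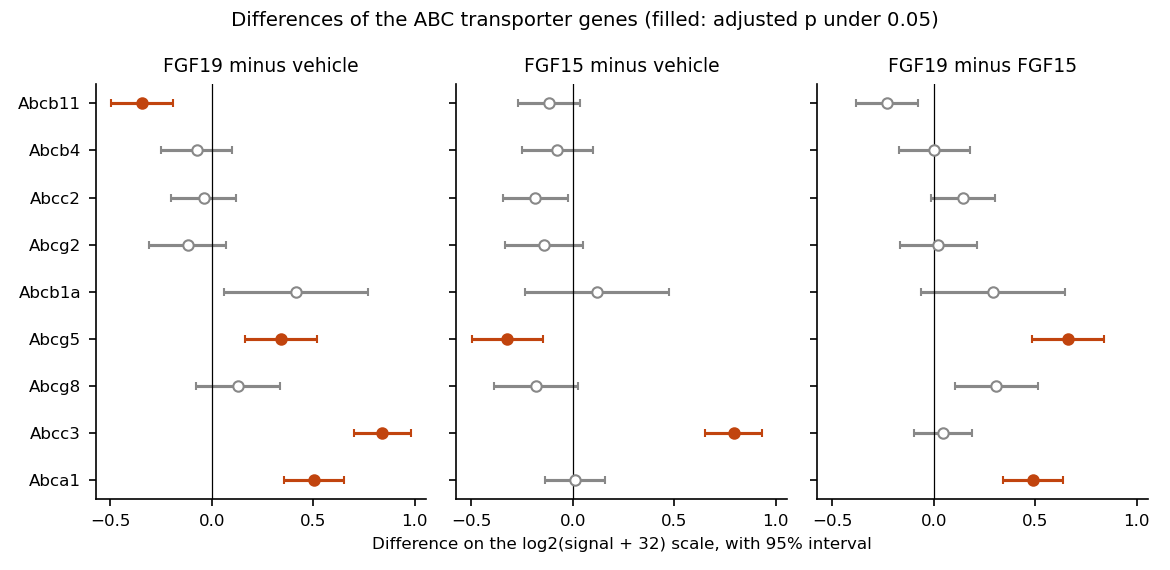
Difference of each transporter gene on the log2(signal + 32) scale (points) with its 95% interval (bars) for FGF19 minus vehicle, FGF15 minus vehicle and FGF19 minus FGF15; filled points have an adjusted p under 0.05. Abcc3 is filled in both comparisons with vehicle, and Abcg5 is filled in all 3, with opposite signs against vehicle.

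Abcb11 is the bile salt export pump, which carries conjugated bile acids across the canalicular membrane. It is encoded on chromosome 2 (GRCm38.p6, 69238282 to 69342616). Its probe set 1449817_at read 1348 and 1349 with FGF19, 1512 and 1666 with FGF15, and 1689 and 1758 with vehicle. The FGF19 arrays were the lowest of the 6 and did not overlap with the others, and the FGF15 arrays lay just under the vehicle arrays. The means were 1348.5 ± 0.799 with FGF19, 1589 ± 109 with FGF15 and 1723 ± 48.7 with vehicle (SD, n = 2 each). Abcb11 fell in FGF19 livers by 0.35 on the log2 scale (SE 0.07, limma adjusted p = 0.0085), which is 1.27-fold, or a difference of -0.27 relative to the median of all genes. With FGF15 its difference from vehicle was -0.12 (SE 0.07, adjusted p = 0.321), and the direct difference of FGF19 minus FGF15 was -0.23 (95% interval -0.38 to -0.08, adjusted p = 0.102), which did not pass. The call in FGF19 livers was lost without vehicle replicate 1 (adjusted p = 0.0518), without vehicle replicate 2 (adjusted p = 0.0807), with a fit that ignores the trend of spread with signal (adjusted p = 0.0771) and with centred arrays, where the difference was -0.20 (adjusted p = 0.149).

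FXR binds an inverted repeat of its half-site with 1 base between the copies, and Abcb11 is a textbook target of it. The 150 bases before the Abcb11 transcript start (RefSeq, GRCm38.p6, chr2:69342617-69342766, minus strand) are shown because they hold a match to such a repeat, given in capitals:
Abcb11: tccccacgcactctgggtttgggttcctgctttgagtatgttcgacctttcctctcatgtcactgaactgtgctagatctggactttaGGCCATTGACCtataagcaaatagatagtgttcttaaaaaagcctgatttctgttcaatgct
The letters searched, on both strands, were GGNCA, any 1 base and TGACC; the match begins 62 bases before the start, and 0.237% of the 32851 RefSeq promoter windows of 300 bases hold one. A match is a run of letters and not a measured binding site, and the letters were chosen with the stretch in view.

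The transcript of the receptor itself changed in these livers, and its protein and activity were not measured. Nr1h4, which encodes FXR, averaged 527 ± 51.7 with FGF19, 801 ± 2.00 with FGF15, and 986 ± 8.90 with vehicle (SD, n = 2 each), so its groups ran in the same order as those of Abcb11. It fell with FGF19 by 0.87 on the log2 scale (adjusted p = 6.21e-05) and with FGF15 by 0.29 (adjusted p = 0.0348), and lay lower in FGF19 than in FGF15 livers by a difference of -0.58 (adjusted p = 0.00197). The FGF15 call was lost without any 1 of the vehicle or FGF15 arrays (adjusted p 0.102 to 0.172) and with centred arrays (adjusted p = 0.235). Nr0b2, the FXR target that encodes the corepressor SHP, rose by 1.03 with FGF19 and by 1.02 with FGF15 on the log2 scale (adjusted p = 5.85e-05 and 7.44e-05). Whether the changes of Nr1h4 or Nr0b2 bear on Abcb11 was not tested.

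Abcc3 (MRP3) exports glucuronides and bile acids across the sinusoidal membrane into blood. Its locus is on chromosome 11 (GRCm38.p6, 94343295 to 94393017). Probe set 1428988_at read 1208 and 1172 with FGF19, 1136 and 1167 with FGF15, and 644 and 658 with vehicle. All 4 hormone arrays lay far above both vehicle arrays, and both FGF19 arrays lay above both FGF15 arrays, by a narrow margin. The means were 1190.0 ± 26.0 with FGF19, 1151 ± 21.6 with FGF15 and 651 ± 9.94 with vehicle (SD, n = 2 each). Abcc3 rose 1.79-fold with FGF19 (log2 difference 0.84, SE 0.06, limma adjusted p = 2.21e-05) and 1.73-fold with FGF15 (0.79, SE 0.06, adjusted p = 3.69e-05). The direct difference of FGF19 minus FGF15 was 0.05, with a 95% interval of -0.09 to 0.19 (adjusted p = 0.776), so a difference between the hormones of up to 0.19 on the log2 scale is within the error.

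The call of Abcc3 held under all 18 alternatives run, with log2 differences of 0.78 to 0.99 for FGF19 and 0.75 to 0.91 for FGF15. Without FGF19 replicate 1 the FGF19 difference was 0.82 (adjusted p = 0.000355). The tested genes whose log2 values ran most nearly with Abcc3 over the 6 arrays were Herpud1, an endoplasmic reticulum stress protein, Ehhadh, a peroxisomal enzyme of fatty acid oxidation, and Nr0b2, with Pearson's r of 0.998, 0.998 and 0.997. These values describe 6 arrays of 3 groups and mainly repeat the step between the hormone and the vehicle arrays.

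Abca1 loads cellular cholesterol and phospholipid onto apolipoprotein A-I, the step that forms HDL, and in liver it is made by hepatocytes and by macrophages. Its locus is on chromosome 4 (GRCm38.p6, 53030789 to 53159988). The brightest of its 3 probe sets, 1421840_at, read 3705 and 3889 with FGF19, 2779 and 2609 with FGF15, and 2719 and 2618 with vehicle. The FGF19 arrays stood above the other 4, among which the FGF15 and vehicle arrays overlapped. The means were 3797 ± 130.1 with FGF19, 2694 ± 119.6 with FGF15 and 2669 ± 71.1 with vehicle (SD, n = 2 each). Abca1 rose 1.42-fold in FGF19 livers against vehicle (log2 difference 0.50, SE 0.07, adjusted p = 0.000856) and was 1.40-fold higher in FGF19 than in FGF15 livers (0.49, SE 0.07, adjusted p = 0.00218). The FGF15 difference from vehicle was 0.01 (95% interval -0.13 to 0.16, adjusted p = 0.929).

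The other 2 probe sets of Abca1 gave the same order for FGF19. Probe set 1421839_at read 962 and 1058 with FGF19, 547 and 611 with FGF15, and 596 and 587 with vehicle. Probe set 1450392_at read 507 and 579.6 with FGF19, 344 and 321 with FGF15, and 388 and 401 with vehicle. Both therefore had their FGF19 arrays above all others, and on 1450392_at the FGF15 arrays also lay below the vehicle arrays. Tested as probe sets of their own, where 11.5% of all 16983 were called for FGF19 minus vehicle and 3.31% for FGF19 minus FGF15, each of the 3 rose with FGF19, by 0.74 (1421839_at), 0.50 (1421840_at) and 0.43 (1450392_at), at adjusted p-values of 0.000404, 0.00144 and 0.012. Each was also higher in FGF19 than in FGF15 livers, by 0.77, 0.49 and 0.66, at adjusted p-values of 0.000657, 0.00352 and 0.00281. For FGF15 minus vehicle, where 10.5% were called, they differed by -0.03, 0.01 and -0.23, none of which passed (adjusted p = 0.854, 0.933 and 0.14), so the probe sets disagree on the sign with FGF15.

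**Figure D3:**
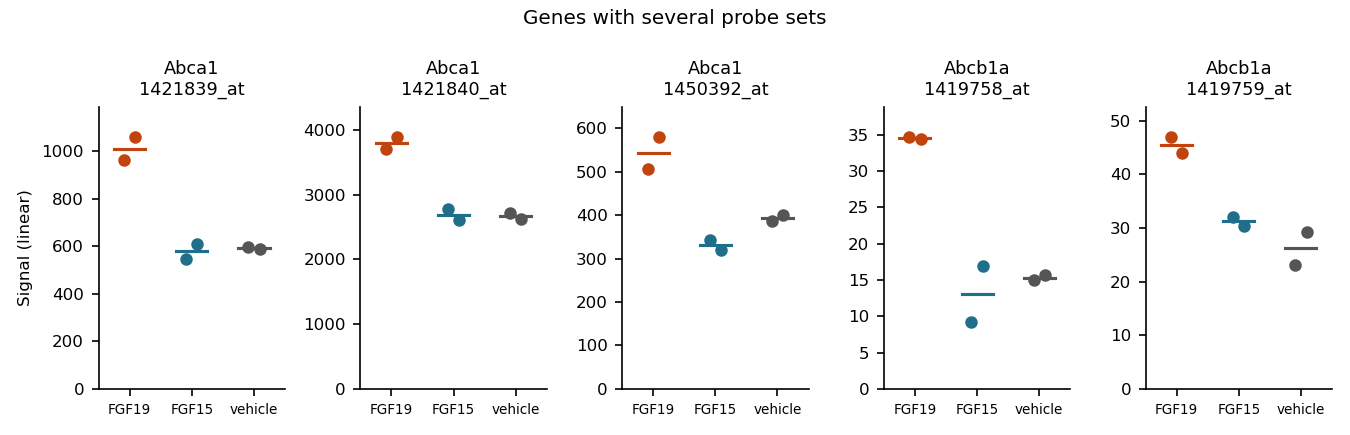
Deposited signal (linear, each panel from 0) of the 3 probe sets of Abca1 and the 2 of Abcb1a, with 1 point per array and a line at the mean of the 2 arrays of each group. On all 5 probe sets both FGF19 arrays lie above both vehicle arrays.

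The call of Abca1 in FGF19 livers against vehicle held under all 18 alternatives, with log2 differences of 0.47 to 0.65. Without FGF19 replicate 1 the difference was 0.54 (adjusted p = 0.00183). The call against FGF15 held under 17 of 18 and was lost in the fit without the signal trend (0.49, adjusted p = 0.0648). Over the 6 arrays the tested genes most like Abca1 were Sptlc2, a subunit of the enzyme that begins sphingolipid synthesis, Mrpl38, a mitochondrial ribosomal protein, and Tmem185a, with Pearson's r of 0.997, 0.997 and 0.995; this too mainly repeats the step between the FGF19 arrays and the rest.

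Macrophages make Abca1 too, and their markers were measured beside it. Markers of Kupffer cells and macrophages were lower with both hormones: 9 of 11 fell with FGF19 and 10 of 11 with FGF15, with medians of -0.81 and -0.74. Over all tested genes 7.26% were called lower with FGF19 and 6.64% with FGF15. Between the hormones 2.4% of all tested genes were called higher with FGF19 and 1.89% lower. The summed signal of the 11 was 3534 and 3499 with FGF19, 3484 and 3608 with FGF15, and 6525 and 6427 with vehicle. The sums with FGF19 and with FGF15 overlapped, while Abca1 was higher with FGF19; between the hormones 2 of the 11 were called, Marco and Mpeg1, both higher with FGF19, and without FGF19 replicate 1 only 1 was. Marco was named after its values were seen. At an unadjusted limma p under 0.05, 2 of the 11 were higher with FGF19 than with FGF15 and 3 were lower. The median of the 11 for that comparison was -0.08. The part of macrophage RNA in the transporter values was not tested.

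LXR binds, with RXR, a direct repeat of the half-site with 4 bases between the copies. The 150 bases before the Abca1 transcript start used by the RefSeq promoter table (GRCm38.p6, chr4:53159896-53160045, minus strand), a start inside the outermost end of the locus, are shown because they hold a match to it, in capitals:
Abca1: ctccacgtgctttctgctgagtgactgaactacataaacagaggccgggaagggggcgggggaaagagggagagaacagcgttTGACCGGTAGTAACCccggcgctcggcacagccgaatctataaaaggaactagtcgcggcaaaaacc
The letters searched, on both strands, were GGTNA, any 5 bases and GGTCA; the match lies on the opposite strand to the gene, 67 bases before the start, and 0.207% of the 32851 windows hold one. These letters were also chosen with the stretch in view.

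Abcg5 and Abcg8 encode the paired subunits of one canalicular transporter, which secretes cholesterol and plant sterols into bile. Probe set 1419393_at of Abcg5 read 623 and 576 with FGF19, 360.5 and 373 with FGF15, and 489.6 and 444 with vehicle. The FGF19 arrays were highest, the FGF15 arrays lowest, and no groups overlapped. The means were 599.8 ± 33.1 with FGF19, 367 ± 8.90 with FGF15 and 467 ± 32.3 with vehicle (SD, n = 2 each). Abcg5 rose 1.27-fold with FGF19 (log2 difference 0.34, SE 0.08, adjusted p = 0.0188) and fell with FGF15 by 0.32 on the log2 scale, which is 1.25-fold (SE 0.08, adjusted p = 0.0262). It was 1.58-fold higher in FGF19 than in FGF15 livers (0.66, SE 0.08, adjusted p = 0.00102), the largest difference between the hormones among the 9 genes.

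The calls of Abcg5 against vehicle depended on single arrays. The rise with FGF19 was lost without FGF19 replicate 1, the array with the high 3' to 5' ratios (0.29, adjusted p = 0.123), without vehicle replicate 2 (0.28, adjusted p = 0.134) and without the signal trend (adjusted p = 0.0872). The fall with FGF15 was lost without vehicle replicate 1 (-0.26, adjusted p = 0.189), vehicle replicate 2 (-0.39, adjusted p = 0.0543), FGF15 replicate 1 (-0.30, adjusted p = 0.0973) or FGF15 replicate 2 (-0.34, adjusted p = 0.0745), without the signal trend (adjusted p = 0.107) and with centred arrays (-0.21, adjusted p = 0.166). The difference of FGF19 minus FGF15 kept its call under all 18 alternatives, at 0.61 to 0.72.

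Probe set 1420656_at of Abcg8 read 315 and 282 with FGF19, 245 and 224 with FGF15, and 280.0 and 259.7 with vehicle. The 3 groups ran in the order of Abcg5 and did not overlap, but the steps were smaller. The means were 298 ± 23.2 with FGF19, 235 ± 14.99 with FGF15 and 269.9 ± 14.4 with vehicle (SD, n = 2 each). The differences were 0.13 for FGF19 minus vehicle (95% interval -0.08 to 0.34, adjusted p = 0.396), -0.18 for FGF15 minus vehicle (-0.39 to 0.03, adjusted p = 0.255) and 0.31 for FGF19 minus FGF15 (0.10 to 0.52, adjusted p = 0.103), and none passed.

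The genes lie head to head on chromosome 17 (GRCm38.p6, Abcg5 at 84658174 to 84683011 and Abcg8 at 84676302 to 84700333), and 109 bases separate the Abcg5 start at 84683011 from the Abcg8 start at 84683121. This shared stretch is shown because it lies before both of these starts, read on the strand of Abcg8 (RefSeq, GRCm38.p6, chr17:84683012-84683120, plus strand), with matches to the GATA box in capitals:
Abcg5/Abcg8: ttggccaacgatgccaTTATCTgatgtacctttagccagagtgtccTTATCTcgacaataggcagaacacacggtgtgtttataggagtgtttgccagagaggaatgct
GATA factors bind the letters AGATAA, here searched on both strands and, as for the repeats, chosen with the stretch in view. The stretch holds 2 matches and the 300-base window of either gene across it holds 3, while 11.2% of all windows hold 1 or more and 0.107% hold 3 or more. Neither the direct repeat of Abca1 nor the half-site AGGTCA, which 16.3% of all windows hold, is found in the window of either gene across this stretch, which says only that these letters are not in it. Abcg8 has another RefSeq window, at 84676052 to 84676351 inside the Abcg5 locus, which holds 0 matches to the GATA box.

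Abcb4, Abcc2, Abcg2 and Abcb1a did not pass the test in any comparison. Abcb4 flips phosphatidylcholine into bile and is encoded on chromosome 5 (GRCm38.p6, 8893614 to 8959226). Its probe set 1449818_at read 984 and 943 with FGF19, 1034 and 892 with FGF15, and 1025 and 1005 with vehicle, so the FGF15 arrays spanned all the others. The differences were -0.07 for FGF19 minus vehicle (adjusted p = 0.578), -0.08 for FGF15 minus vehicle (adjusted p = 0.584) and 0.00 for FGF19 minus FGF15 (95% interval -0.17 to 0.18). Abcc2 (MRP2) secretes bilirubin glucuronides and glutathione conjugates at the canaliculus (chromosome 19, 43782308 to 43838332). Its probe set 1450109_s_at read 908 and 857 with FGF19, 770.3 and 821 with FGF15, and 939.8 and 876 with vehicle. Both FGF15 arrays were the lowest of the 6, at a difference of -0.18 from vehicle (adjusted p = 0.132), while the FGF19 difference was -0.04 (adjusted p = 0.759).

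Abcg2, the canalicular exporter of urate, porphyrins and many drugs (chromosome 6, 58584491 to 58692451), read 692 and 704 with FGF19, 657 and 716 with FGF15, and 702 and 824 with vehicle on probe set 1422906_at. The groups overlapped in every pair, and the differences from vehicle were -0.12 with FGF19 (adjusted p = 0.401) and -0.14 with FGF15 (adjusted p = 0.333). The difference between the hormones was 0.02 (adjusted p = 0.929).

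Abcb1a, a mouse P-glycoprotein gene whose product exports hydrophobic drugs (chromosome 5, 8567091 to 8748575), was the dimmest member. The brighter of its 2 probe sets, 1419759_at, read 46.9 and 44.0 with FGF19, 32.02 and 30.4 with FGF15, and 23.2 and 29.3 with vehicle. The other, 1419758_at, read 34.6 and 34.4 with FGF19, 9.25 and 16.9 with FGF15, and 15.03 and 15.6 with vehicle. On both, the FGF19 arrays were above the other 4, but signals of this size lie close to the added 32 and near the filter level of 14.0. The FGF19 difference from vehicle was 0.41 on 1419759_at (95% interval 0.06 to 0.77, adjusted p = 0.121) and 0.49 on 1419758_at (adjusted p = 0.111). It passed the threshold under each of the 3 other scalings, at 0.55 with quantile normalization (adjusted p = 0.0476), 0.56 with centred arrays (adjusted p = 0.0381) and 0.55 with cyclic loess (adjusted p = 0.0469). The FGF15 difference was 0.12 (adjusted p = 0.689), and that between the hormones was 0.29 (adjusted p = 0.412).

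**Figure D4:**
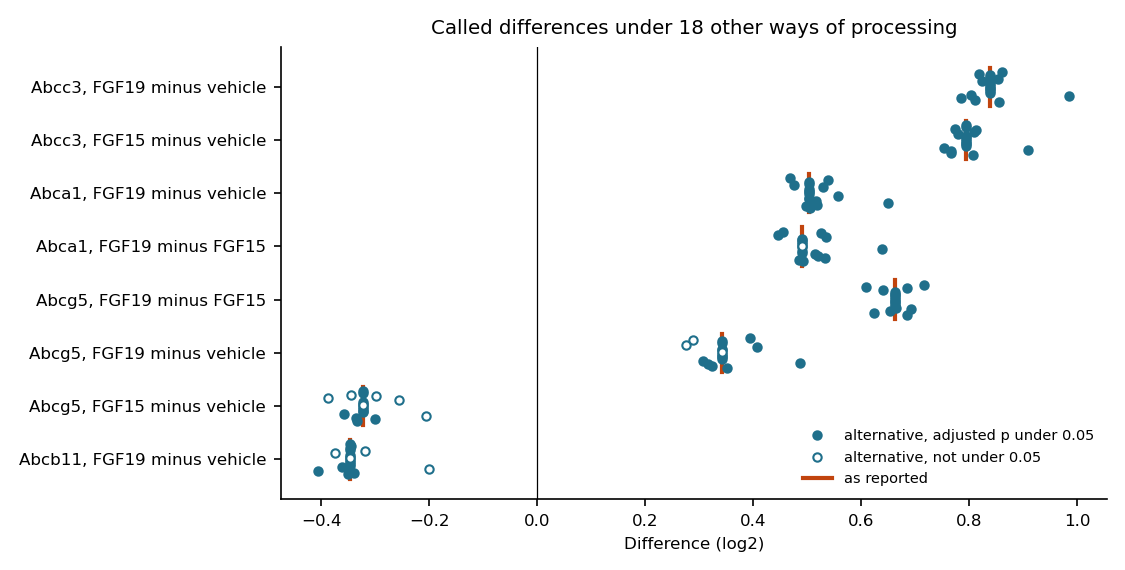
Log2 difference of each called comparison of a transporter gene as reported (orange tick) and under the 18 alternatives in normalization, filter, pseudocount, model or arrays used (points, filled where the adjusted p was under 0.05). Abcc3 in both hormones, Abca1 against vehicle and Abcg5 between the hormones have filled points in every alternative, and Abcb11 and Abcg5 against vehicle have open ones.

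Of 26 tested genes of other ABC transporters, 4 were called with FGF19 and 3 with FGF15, shares near the 13.5% and 12.5% of all tested genes. Abcd2, a peroxisomal transporter of fatty acyl-CoA, and Abcf1 rose with FGF19, and Abcb10, a transporter of the inner mitochondrial membrane, and Abcc5 fell. Abcc6, Abcf1 and Abcf3 rose with FGF15 and none fell by limma, where 3 were higher and 4 lower at an unadjusted p under 0.05. None of the 26 was called between FGF19 and FGF15, beside 4.29% of all tested genes. At an unadjusted p under 0.05, 1 was higher and 2 lower in that comparison. Abcc6, a sinusoidal transporter of hepatocytes, averaged 229 ± 12.5 with FGF19, 294 ± 1.47 with FGF15 and 215 ± 0.122 with vehicle (SD, n = 2 each), a difference of 0.40 for FGF15 (adjusted p = 0.0132). The median difference over the list was -0.14 with FGF19 and -0.05 with FGF15. Its counts changed when 1 array was left out, which also leaves fewer arrays to estimate the spread. With 1 of the 4 compared arrays left out, whichever it was, no gene was called higher with FGF19, and 0 (without vehicle replicate 1 or FGF15 replicate 2) or 1 (without vehicle replicate 2 or FGF15 replicate 1) was called higher with FGF15. None was called lower with FGF19 without vehicle replicate 1 or FGF19 replicate 1, and the rise of Abcc6 lost its call without any 1 of the vehicle or FGF15 arrays (adjusted p 0.0515 to 0.0777). The fall of Abcb10 lost its call without any 1 of the vehicle or FGF19 arrays (adjusted p 0.0582 to 0.0786) and with the mean of probe sets (adjusted p = 0.054), and the rise of Abcf3 without vehicle replicate 1 (adjusted p = 0.108), without FGF15 replicate 2 (adjusted p = 0.1003) and with the mean of probe sets (adjusted p = 0.114). Abcd2, Abcf1 and Abcc5 were named after their values were seen.

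Canalicular transporters are held at the membrane by scaffold and trafficking proteins, and 19 such genes were tested. With FGF19 2 were called higher and 1 lower, beside 6.27% and 7.26% of all tested genes. With FGF15 1 was called higher and 0 lower, beside 5.87% and 6.64%. Cldn2, a tight junction protein that forms a paracellular channel, rose with both hormones, averaging 731 ± 5.38 with FGF19, 748 ± 23.8 with FGF15 and 448 ± 50.7 with vehicle (SD, n = 2 each; log2 differences 0.67 and 0.71, adjusted p = 0.000555 and 0.000444). Slc9a3r1, which encodes the scaffold NHERF1, rose with FGF19 by 0.30 (adjusted p = 0.01), a call lost without vehicle replicate 1 (adjusted p = 0.0579) or vehicle replicate 2 (adjusted p = 0.1005). Rdx, which encodes radixin, the protein that ties Abcc2 to the actin cortex in hepatocytes, averaged 825 ± 53.5 with FGF19, 1113 ± 37.8 with FGF15 and 1272 ± 60.9 with vehicle (SD, n = 2 each). Rdx fell with FGF19 by 0.61 on the log2 scale (adjusted p = 0.000469), while its FGF15 difference of -0.19 did not pass (adjusted p = 0.131), and the difference of FGF19 minus FGF15 was -0.42 (adjusted p = 0.00844). That difference was lost without FGF19 replicate 1 (-0.36, adjusted p = 0.058) and without FGF15 replicate 2 (-0.39, adjusted p = 0.0612). The other 16 genes did not pass with FGF19, nor the other 18 with FGF15, where 3 were higher and 6 lower at an unadjusted p under 0.05. The list's median was -0.09 with FGF19 and -0.10 with FGF15, and without FGF15 replicate 1 there were 3 called lower with FGF15. Without FGF15 replicate 1 or FGF15 replicate 2, whose arrays enter the comparison of FGF19 with vehicle only through the spread, 3 were called lower with FGF19, and without either FGF19 array 2 were called higher with FGF15.

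Among 11 other genes known as LXR targets, of which Abcg1 also stands in the list of other ABC transporters, Pltp and Srebf1 were higher with FGF19. Pltp, the phospholipid transfer protein of plasma, averaged 2390.2 ± 82.2 with FGF19, 1158 ± 58.4 with FGF15 and 711 ± 3.04 with vehicle (SD, n = 2 each). It rose by 1.71 on the log2 scale with FGF19 (adjusted p = 2.32e-07) and by 0.68 with FGF15 (adjusted p = 0.00015), and was higher in FGF19 than in FGF15 livers by 1.03 (adjusted p = 1.88e-05). The FGF15 rise was 0.21 (adjusted p = 0.268) when all probe sets of the gene were averaged. Srebf1, which encodes the lipogenic factor SREBP-1, averaged 1029 ± 47.6 with FGF19, 387 ± 20.1 with FGF15 and 635 ± 8.38 with vehicle (SD, n = 2 each). Like Abcg5, Srebf1 lay on opposite sides of vehicle: it rose by 0.67 with FGF19 (adjusted p = 0.000244) and fell by 0.67 with FGF15 (adjusted p = 0.000261), a difference between the hormones of 1.34 (adjusted p = 5.43e-06).

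Among the remaining LXR targets, Lpl, lipoprotein lipase, fell with FGF15 by 0.86 (adjusted p = 0.00291), and its FGF19 difference of -0.33 did not pass (adjusted p = 0.148). Lpcat3, a phospholipid acyltransferase named here after its values were seen, was higher in FGF19 than in FGF15 livers by 0.33 (adjusted p = 0.0441). With FGF19, 2 of the 11 rose and none fell by limma, where 3 were higher and 4 lower at an unadjusted p under 0.05; without FGF19 replicate 2, 3 fell, and without either FGF15 array 1 fell. With FGF15, 1 rose and 2 fell, and between the hormones 3 were higher and none lower by limma (4 and 0 at an unadjusted p under 0.05), again with 3 lower without FGF19 replicate 2. The list's median was -0.19 with FGF19 and -0.11 with FGF15. Of all tested genes 6.27% were called higher and 7.26% lower with FGF19, and 5.87% and 6.64% with FGF15. Between the hormones 2.4% were called higher and 1.89% lower with FGF19.

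**Figure D5:**
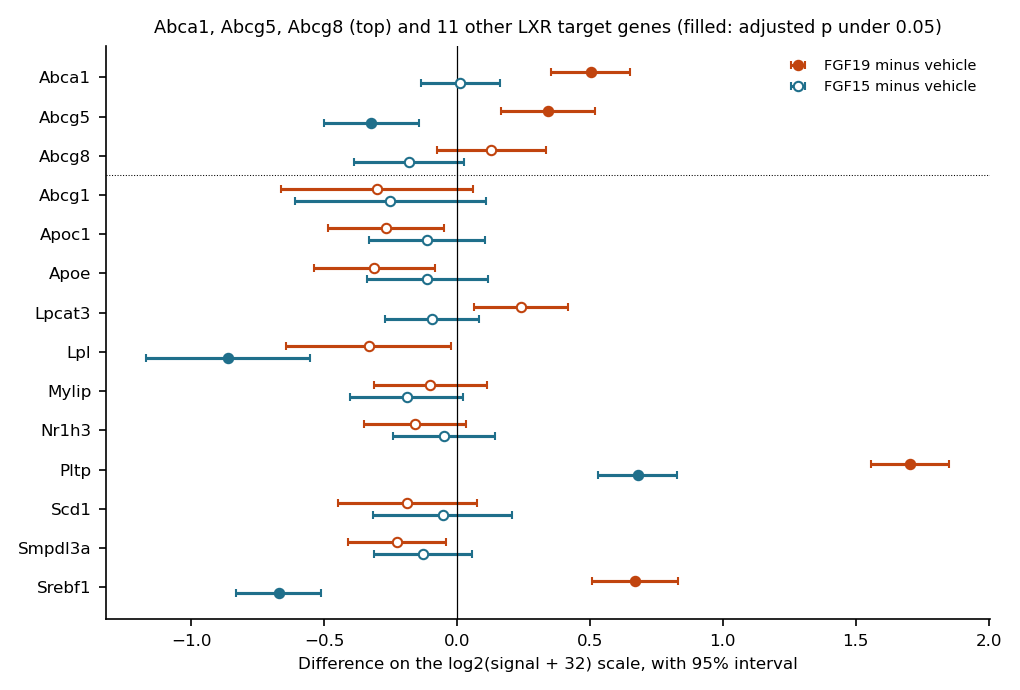
Differences from vehicle on the log2(signal + 32) scale with 95% intervals for FGF19 (orange) and FGF15 (blue), for Abca1, Abcg5 and Abcg8 above the dotted line and 11 other LXR target genes under it; filled points have an adjusted p under 0.05. Pltp and Srebf1 stand out on the right with FGF19, while most others lie left of 0 with open points.

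Transcripts of the receptors and factors known to act on transporter genes changed in both directions. Of 14 tested, Nr0b2 rose and Nr1h4 and Srebf2, which encodes the factor of cholesterol synthesis, fell with FGF19. Nr0b2 and Nr1i3 rose with FGF15, and Foxo1, Nr1h4 and Nr1i2 fell. For comparison, 13.5% of all tested genes were called with FGF19 and 12.5% with FGF15. Nr1i3, which encodes the xenobiotic receptor CAR, averaged 326 ± 11.5 with FGF19, 442 ± 1.02 with FGF15 and 268 ± 16.7 with vehicle (SD, n = 2 each). It rose with FGF15 by 0.66 (adjusted p = 0.000564), its FGF19 difference of 0.26 did not pass (adjusted p = 0.0626), and it was lower with FGF19 than with FGF15 by a difference of -0.40 (adjusted p = 0.0183), which lost its call without any 1 of the FGF19 or FGF15 arrays (adjusted p 0.0602 to 0.134). The list's median was -0.15 with FGF19 and -0.03 with FGF15. Without vehicle replicate 1 or without vehicle replicate 2, none of the 3 genes lower with FGF15 was called and 1 was called lower with FGF19; without FGF15 replicate 1 there was 1 lower with FGF15, and without FGF19 replicate 2 there was 1 lower with FGF19. Srebf2, Foxo1 and Nr1i2 were named after their values were seen.

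Hepatocyte markers bear on all 9 genes. None of the 6 tested was called by limma in either comparison with vehicle, although 5 were lower with FGF19, and 0 with FGF15, at an unadjusted p under 0.05. Their median difference was -0.34 with FGF19 and -0.17 with FGF15, while Abcb11 differed by -0.35 and -0.12. Without FGF19 replicate 2 all 6 were called lower with FGF19 than with vehicle or FGF15, and without either FGF19 array 3 were called lower with FGF15. Their summed signal was 49295 and 66479 with FGF19, 62011 and 66737 with FGF15, and 72206 and 71383 with vehicle, with FGF19 replicate 1 the lowest. Of 13 endothelial markers none was called with FGF19 (3 were lower at an unadjusted p under 0.05), and Lyve1 fell with FGF15. Of 4 cholangiocyte markers tested, Slc4a2 fell with FGF19, a call lost without any 1 of the vehicle or FGF19 arrays, and none changed with FGF15 by limma (1 was lower at an unadjusted p under 0.05), and the defining markers Krt7 and Cftr were below the filter on low signals. Of 8 stellate cell markers 3 fell with each hormone, Col1a1 (named after its values were seen), Col3a1 and Rgs5; without vehicle replicate 1 or 2 only 1 was called lower with FGF19. Beside these marker counts, 7.26% of all tested genes were called lower with FGF19 and 6.64% with FGF15. The part of these cell types in the transporter values was not tested.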

How the data were processed

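The deposited values are signal intensities on a linear scale, 1 per probe set and array, scaled by the authors to a trimmed mean of 200.1; the software, its version and any background step were not given in the sources used here. Of 22690 probe sets, 64 controls were left out. Genes came from the platform annotation: 20380 probe sets had exactly 1 gene, and 20351 were named through their Entrez identifier. Signals became log2(signal + 32), each of the 12393 genes was represented by its probe set of highest mean, and 2701 genes with a mean under the 25th percentile were removed, leaving 9692.

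One limma 3.58.1 model (R 4.3.3, eBayes with an intensity trend) held all 6 arrays, with 3 residual degrees of freedom and 6.82 from the prior, and Benjamini-Hochberg adjustment per contrast. The number of arrays limits the precision. On simulated data for FGF15 minus vehicle with 200 of 9692 genes changed, 35% of changes of 0.4 and 83% of 0.8 on the log2 scale were recovered, and 8.53% of calls were false. This was 1 draw with independent normal noise. In the data 1213 genes were called in that comparison, so these rates describe the simulation and not the calls reported here. Promoter letters and coordinates are RefSeq's, GRCm38.p6; 9 of the 10 genes had a window. Figures were drawn with matplotlib 3.10.9 (Python 3.11.15).

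The transporter genes, the 7 gene lists and the 7 marker lists were chosen with earlier results of these data known. The text names every transporter gene, from each list up to 3 called genes (markers up to 2) of smallest p in either contrast with vehicle, and the 3 genes most correlated with each of the 2 transporter genes of smallest p; others are said to be named after their values were seen. Alternatives were pseudocounts of 16 and 64, 3 other normalizations, no filter or one at the 50th percentile, the mean of probe sets or each alone, no intensity trend, a fit of just the compared groups, a block for replicate number, and leaving out each array.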

Additional observations from a re-analysis of the deposited data

Results flagged for a closer look

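The effects of the hormones were set against each other by the contrast FGF19 minus FGF15 of the limma fit, and the genes below had an adjusted p under 0.05 in it. The comparisons of the hormones with vehicle share the vehicle arrays, which enter this contrast through the estimate of the spread. Among the transporter genes these were Abcg5, with a log2 difference of 0.66 (adjusted p = 0.00102), and Abca1, with 0.49 (adjusted p = 0.00218); both FGF19 arrays were above both FGF15 arrays.

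Among the list genes named by the rule, Srebf1 differed by 1.34, Pltp by 1.03, Mpeg1 by 0.51, Lyve1 by 0.40, Apoa4 by 0.38 and Gsta2 by 0.32, all higher with FGF19. Nr1h4 differed by -0.58, Slc22a7 by -0.47, Rdx by -0.42, Vnn1 by -0.41, Nr1i3 by -0.40 and Cyp2b10 by -0.31, all lower with FGF19. Lyve1 is a sinusoidal endothelial marker, Apoa4 and Mpeg1 stood in the intestinal and macrophage marker lists, and Vnn1 is a target of PPAR alpha. Of listed genes outside the naming rule, named after their values were seen, Gclc, Marco, Hmox1, Nr1i2 and Lpcat3 were also called higher with FGF19, by 1.06, 1.01, 0.85, 0.51 and 0.33, and Cyp2b9, Acot3 and Lrat lower, at -1.54, -1.08 and -0.65.

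Several of these calls were lost when 1 array was left out, which also leaves fewer arrays to estimate the spread. The difference of Lyve1 was called in none of the 6 fits that left out 1 array (adjusted p 0.0556 to 0.187), that of Gsta2 only without FGF19 replicate 2 (0.0523 to 0.139 in the others) and that of Cyp2b10 only without FGF19 replicate 1 (0.0606 to 0.212 in the others). Nr1i3 lost its call without any 1 of the FGF19 or FGF15 arrays (0.0602 to 0.134). Vnn1 lost it without FGF19 replicate 2 (0.106) or FGF15 replicate 1 (0.117), Apoa4 without FGF19 replicate 1 (0.107) or FGF15 replicate 1 (0.155), and Rdx without FGF19 replicate 1 (0.058) or FGF15 replicate 2 (0.0612). Leaving out 1 array was not run gene by gene for those outside the naming rule. In the fit without the intensity trend, only Srebf1 and Pltp of the list genes named by the rule kept this call. The others had limma adjusted p of 0.0542 to 0.203 there, with Nr1h4 and Mpeg1 at 0.0542, Slc22a7 at 0.0623 and Rdx at 0.118.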

How the results depend on the processing

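Of 483 member values recomputed over 18 alternatives, 449 kept their direction and their side of the threshold, 14 lost the call, 4 gained one and 16 changed sign; the cause was not tested. Members called lower with FGF15 went to 0 (1 as reported) with centred arrays and without the intensity trend, and ranged over 0 to 1 when each array was left out. Members called lower with FGF19 went to 0 (1 as reported) under the same 2 settings, with a range of 0 to 1. Members higher in FGF19 than in FGF15 livers numbered 1 (2 as reported) without the trend, and members lower numbered 1 (0 as reported) after quantile normalization, where Abcb11 was at -0.25 (adjusted p = 0.0421). Calls over all genes fell to 733 (FGF19 minus vehicle), 637 (FGF15 minus vehicle) and 163 (FGF19 minus FGF15) without the trend, against 1312, 1213 and 416 as reported. Among named list genes, that fit also lost the FGF15 calls of Abcc6 (adjusted p = 0.0503), Abcf3 (0.0643), Nr1h4 (0.139) and Apoa4 (0.141). Lost with FGF19 were those of Slc9a3r1 (0.0867), Slco1a1 (0.136), Rgs5 (0.0568) and Alas2 (0.0944).

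No value that changed sign was called on either side. With centred arrays these were, for FGF19 minus vehicle, Abcb4 at 0.072, Abcc2 at 0.11 and Abcg2 at 0.027, and for FGF15 minus vehicle, Abcb11 at 0.000126 and Abcb4 at 0.039. After quantile normalization Abcb4 was at -0.025 for FGF19 minus FGF15 and Abca1 at -0.016 for FGF15 minus vehicle, and with the mean of probe sets Abca1 was at -0.082 for FGF15 minus vehicle. With each array left out, FGF19 minus vehicle ranged from -0.088 to 0.0088 for Abcc2, and without FGF19 replicate 2 it was 0.000991. FGF15 minus vehicle ranged from -0.18 to 0.026 for Abcb4 and from -0.032 to 0.058 for Abca1. FGF19 minus FGF15 ranged from -0.10 to 0.11 for Abcb4 and from -0.036 to 0.083 for Abcg2.

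The replicate numbers carry no stated pairing. Deviations from the group means correlated at -0.02 between same-numbered FGF19 and vehicle arrays, 0.08 between FGF15 and vehicle and 0.05 between FGF19 and FGF15. With the replicate number as a block, members called higher and lower numbered 3 and 1 (FGF19 minus vehicle), 1 and 1 (FGF15 minus vehicle) and 2 and 0 (FGF19 minus FGF15), as without it, and all-gene calls were 1380, 1246 and 450. With 2 arrays a group, leaving 1 out assumes that the lone array varies like the other groups. It also leaves fewer residual degrees of freedom, so a lost call need not come from the array left out.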

Other observations

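Sinusoidal carriers of bile acids and organic anions were measured beside the ABC transporters. Slc22a7, the organic anion carrier OAT2, averaged 151 ± 5.94 with FGF19, 223 ± 2.26 with FGF15 and 725 ± 2.11 with vehicle (SD, n = 2 each). It fell by 2.04 on the log2 scale with FGF19 (adjusted p = 2.32e-07) and by 1.57 with FGF15 (adjusted p = 1.94e-06). Slco1a4, an organic anion transporting polypeptide, fell by 0.76 with FGF19 (adjusted p = 0.000793) and by 0.71 with FGF15 (adjusted p = 0.00123). Slco1a1, another of that family, rose by 0.24 with FGF19 (adjusted p = 0.0294), a call lost without any 1 of the vehicle or FGF19 arrays, and its FGF15 difference of 0.18 did not pass (adjusted p = 0.0885). Of the 7 carriers tested, 1 rose and 2 fell with FGF19 and 2 fell with FGF15, with list medians of -0.18 and -0.06. Over all tested genes 6.27% were called higher and 7.26% lower with FGF19, and 5.87% and 6.64% with FGF15.

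Targets of PPAR alpha rose together, 9 of 11 with FGF19 and 8 of 11 with FGF15, with medians of 0.76 and 0.96 beside medians of -0.07 and -0.05 over all tested genes. Of 15 tested targets of CAR, PXR and NRF2, 5 rose and 3 fell with FGF19, and 4 rose and 3 fell with FGF15. Beside both lists, 6.27% of all tested genes were called higher and 7.26% lower with FGF19. With FGF15 these shares were 5.87% and 6.64%. Gsta2, a glutathione S-transferase subunit, rose by 1.84 with FGF19 (adjusted p = 1.41e-07) and by 1.52 with FGF15 (adjusted p = 8.90e-07). Cyp2b10, the CAR target used to mark its activation, rose by 1.00 with FGF19 (adjusted p = 1.26e-05) and by 1.32 with FGF15 (adjusted p = 2.58e-06). Without vehicle replicate 2, 3 genes of that list were called higher with FGF19, against 5 as reported. Red-cell and intestinal markers were the other lists run: Alas2 rose with FGF19 (not without vehicle replicate 1 or FGF19 replicate 2), Fabp2 rose with both hormones, Apoa4 fell with FGF15 (not without either vehicle array, nor without FGF15 replicate 1), and Hba-a1, Vil1 and Cdh17 were below the filter on low signals.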
